A study of Mus musculus with 24 samples.

Results

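The single library labelled preleptotene spermatocytes was compared with the 3 spermatogonia libraries in each of 2 assays, total RNA and nascent RNA. These are 8 of the 24 libraries of the series, 4 per assay, taken by the cell type given in the labels. All came from testes of wild-type NMRI mice in which spermatogenesis had been synchronised with WIN18,446, an inhibitor of retinoic acid synthesis, and retinoic acid. At 24 days after birth each mouse received 2 mg of 5-ethynyl uridine (EU), a nucleoside that is built into new RNA and can be captured by click chemistry, and tissue was taken 3 h later. Cells were sorted by flow cytometry on DNA content. The text on the sort names spermatogonia, leptotene and pachytene cells, so the preleptotene fraction is known only from the cell type label. Spermatogonia libraries 1 and 2 came from 1 animal and library 3 from another, while the preleptotene-labelled library came from another animal again, and the nascent assay used other animals arranged in the same way. Stage and animal therefore cannot be told apart, each assay has 1 preleptotene library, and no test between the stages was possible. Nothing says that the libraries of 1 animal are separate preparations of cells.

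Preleptotene is the last interphase before meiosis, when male germ cells pass through premeiotic DNA replication. Retinoic acid switches on Stra8, whose protein works with MEIOSIN to activate genes of meiotic prophase. In the following leptotene stage SPO11 cuts DNA at sites marked by PRDM9, axis and synaptonemal complex proteins organise the chromosomes, and DMC1 and its partners carry out strand exchange. Spermatogonia are the mitotic cells that precede these steps, and they range from undifferentiated cells to KIT-positive differentiating cells.

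Values are FPKM (fragment counts scaled to transcript length and library size) as the authors deposited them, after the spike-in entries were removed and the 4 libraries of an assay were brought to the same sum. The implied depth was 9120000 to 13090000 fragments in total RNA and 5320000 to 10110000 in nascent RNA, as estimated from the lowest values of genes with 1 transcript. Spike-ins made up 2.96% to 6.02% of total RNA values. They took 59.0%, 45.4% and 8.86% of the nascent spermatogonia libraries and 8.64% of the nascent preleptotene-labelled library. Ribosomal and other small RNA entries took 54.8% to 61.7% of total and 69.2% to 71.9% of nascent FPKM. Across genes, the preleptotene-labelled library was nearest to spermatogonia library 3, with Spearman correlations of 0.586, 0.524 and 0.670 with spermatogonia libraries 1 to 3 in total RNA and 0.462, 0.475 and 0.613 in nascent RNA. Genes are not independent replicates, and the libraries share gene length and composition.

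Stra8, the retinoic acid target that marks meiotic entry, did not set the preleptotene-labelled library apart from spermatogonia in total RNA. The gene lies at chr6:34920163-34939344 (mm10). In total RNA it was at 23.0, 25.2 and 12.4 FPKM in spermatogonia libraries 1 to 3 and at 20.8 in the preleptotene-labelled library. In nascent RNA it was at 25.3, 20.4 and 17.2 FPKM in spermatogonia and at 8.43 in the preleptotene-labelled library. The total RNA value thus lay among the spermatogonia, while the nascent value lay below all 3. The log2 difference from the spermatogonia mean, with 1 FPKM added to every value, was 0.10 in total RNA (SD of spermatogonia 0.53, n = 3) and -1.20 in nascent RNA (SD 0.27, n = 3). The total RNA difference was -0.21 without spermatogonia library 3, and the nascent difference was 0.97 when libraries were scaled to spike-ins.

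Sycp3, which encodes a lateral element protein of the synaptonemal complex and lies at chr10:88459569-88473236, was clearly higher in total RNA only. Its total RNA stood at 9.13, 5.70 and 4.17 FPKM in spermatogonia and 34.0 in the preleptotene-labelled library, 5.37 times the spermatogonia mean. Its nascent RNA stood at 4.55, 12.7 and 7.32 FPKM in spermatogonia and 13.0 in the preleptotene-labelled library. The preleptotene value was above every spermatogonia library in both assays, but in nascent RNA it was barely above spermatogonia library 2. The log2 differences were 2.31 (SD 0.49, n = 3) and 0.71 (SD 0.65, n = 3), and the nascent difference was -1.16 on the 5S-corrected scale described below. Sycp3 overlaps Chpt1 on the opposite strand. The 2 marker genes of the labelled stage therefore did not give 1 answer: Sycp3 was higher and Stra8 was level in total RNA and lower in nascent RNA.

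The partner of STRA8 and an early cohesin gave further values on the label. Meiosin, listed in the tables under its earlier symbol Gm4969, was at 9.34, 10.1 and 13.9 FPKM in total RNA of spermatogonia and 21.5 in the preleptotene-labelled library. In nascent RNA it was at 9.56, 12.1, 13.3 and 24.3 FPKM in the same order. It was above all spermatogonia libraries in both assays, by log2 differences of 0.92 and 1.01, but not with 5S-corrected nascent values. Rec8, a meiotic cohesin subunit that retinoic acid also induces, was at 3.11, 2.26 and 4.62 FPKM in total RNA of spermatogonia and 0.423 in the preleptotene-labelled library. Its nascent RNA was at 1.46, 1.13, 4.64 and 0.122 FPKM in that order. Rec8 was thus below all spermatogonia libraries in both assays, opposite to Meiosin.

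**Figure D1:**
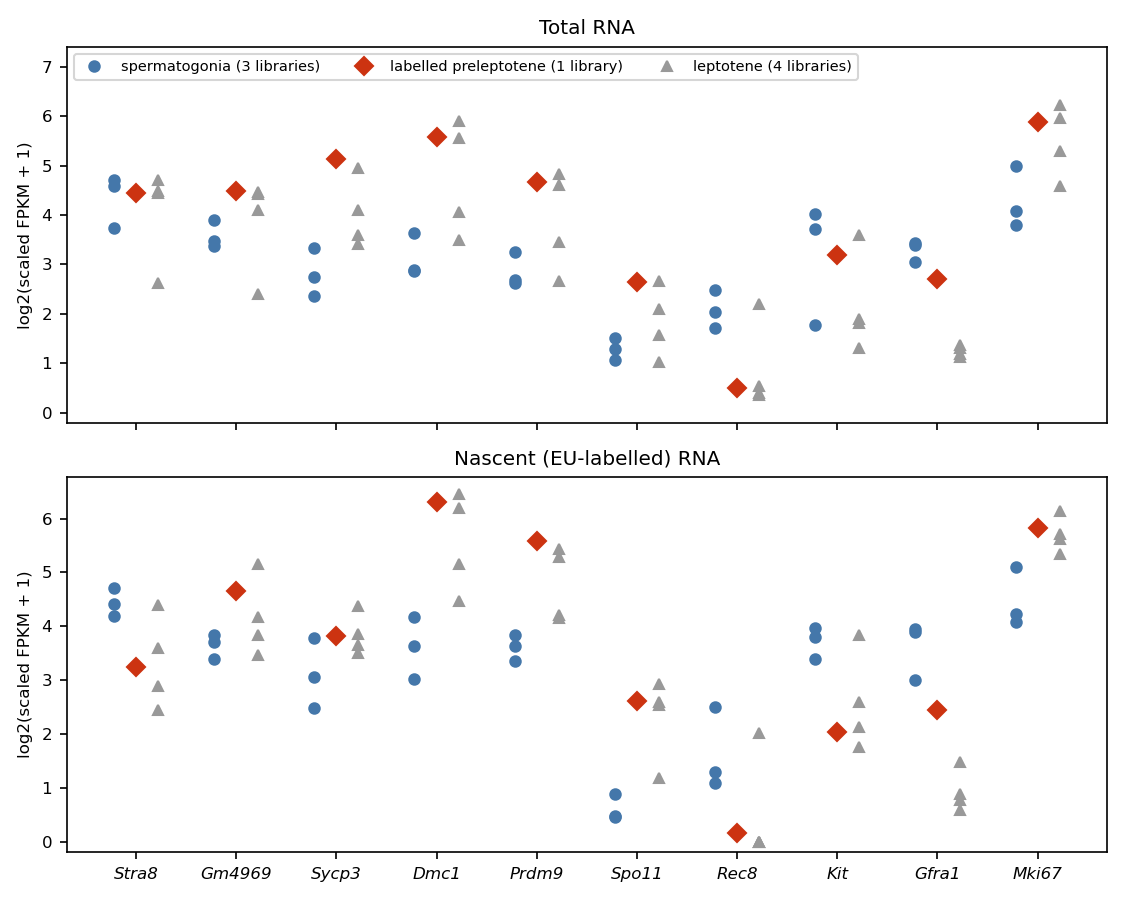
Level of 10 marker genes in each library as log2(scaled FPKM + 1), in total RNA (upper) and nascent RNA (lower), with 3 spermatogonia libraries, 1 library labelled preleptotene and 4 leptotene libraries as separate points. Stra8 of the preleptotene-labelled library lies inside the spermatogonia range in total RNA and below it in nascent RNA, while Dmc1, Prdm9 and Spo11 lie above it in both (with 5S-corrected nascent values Prdm9 lies inside it and Spo11 does not pass the level filter).

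Sequence before the RefSeq start of both marker genes is shown because it holds the letters of known kinds of control site. The RefSeq start of Stra8 lies inside the GENCODE span given above, so its sites fall within that span. Both windows come from the RefSeq promoter table for GRCm38.p6, each site with its flanks as 30 bases of the gene's own strand. Capitals mark AGGTCA, the half-site of retinoic acid receptors, in Stra8, and CACGTG, the E-box bound by MAX and MGA, in Sycp3.
Stra8 site 194 bases before the start (chr6:34920742-34920771, + strand): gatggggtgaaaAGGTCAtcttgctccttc
Stra8 site 38 bases before the start (chr6:34920898-34920927, + strand): gcctggggtaccAGGTCAgttttttacctg
Sycp3 site 64 bases before the start (chr10:88459511-88459540, + strand): gccgttggctccCACGTGagaacgggcatg
Sycp3 site 43 bases before the start (chr10:88459532-88459561, + strand): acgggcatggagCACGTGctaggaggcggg
A match to letters is a description of the sequence and not a binding site.

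Across the genome more genes lay below the spermatogonia range than above it. A gene was above or below the range when the preleptotene-labelled library exceeded the highest or fell short of the lowest of the 3 spermatogonia libraries, and 11688 genes with a mean of at least 1 FPKM over the 4 libraries of each assay were compared. In total RNA 2866 genes were above (24.5%) and 5815 below (49.8%). In nascent RNA 4179 were above (35.8%) and 5276 below (45.1%). In both assays at once 2407 genes were above (20.6%) and 4160 below (35.6%), and 4348 (37.2%) were inside the range in at least 1 assay. The median log2 difference over all genes was -0.28 in total RNA and -0.13 in nascent RNA.

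A stricter rule of size asked for a gap of at least 2-fold, on the scale of value plus 1, to the nearest spermatogonia library in each assay. By that rule 293 genes were above (2.51%) and 688 below (5.89%). At this limit, Cnnm2 (smaller gap of 1.001 on the log2 scale) was just inside and Nrbp1 (0.999) just outside among genes above, and Ywhab (1.002) just inside and Abhd2 (0.999) just outside among genes below. Spermatogonia library 3 was the nearest library for 67.2% of the 293 genes in total RNA and 72.7% in nascent RNA, and for 78.6% and 70.8% of the 688 genes. Without total RNA library 3 of spermatogonia the counts were 471 and 931, and against library 3 of each assay alone they were 481 and 998.

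The balance between higher and lower genes depended on how libraries were scaled. Of genes outside the range in both assays, 36.7% were above with equal sums and 56.2% (3854 above, 3002 below) with median-of-ratios scaling, which sets the median gene close to 0. The authors also deposited nascent values corrected to 5S RNA. That correction multiplied spermatogonia libraries 1 to 3 by 3.91, 2.72 and 0.943 and the preleptotene-labelled library by 0.467, the same constant for every gene. On that scale the median nascent difference was -1.43, and only 182 genes were above and 5848 below in both assays. Scaling to spike-ins gave a median nascent difference of 1.55, with 2022 genes above and 275 below. Constants for whole libraries keep the order of genes within a library, so each gene list below is to be read against all genes. With equal sums 20.6% of all genes were above and 35.6% below in both assays. Their medians were -0.28 in total RNA and -0.13 in nascent RNA. Counts of a list on another scale are to be read against all genes on that scale. These were 182 above and 5848 below of 11411 genes with 5S-corrected nascent values. They were 2022 above and 275 below of 13340 with spike-in scaling, and 3854 above and 3002 below of 11714 with median-of-ratios scaling. Of the listed and named genes described in the text as above the range in both assays, 15 were above it with 5S-corrected nascent values: Dmc1, Fbxo47, Rad51ap2, Meiob, Tex13c2, Ccnb3, Mybl1, Smpd3, Unc13b, Msh5, Rnf212, Spata22, Ccdc155, Spdya and Fbxo5. All others described as above were not. Of listed and named genes described as below in both assays, 8 were below it with spike-in scaling: Aldh1a1, Acta2, Hsd3b1, Lyz2, Cbx6, S100a11, Ppt1 and Ier3. All others described as below were not. Spike-in scaling also put 4930447C04Rik, Mcm9 and Rdh10 inside the range, and median-of-ratios scaling put Stag2, Ube2b, Fignl1, Cyp26b1 and Mcm2 inside it. No named gene went to the other side of the range in both assays. The 5S-corrected values could not bring this about, since they left total RNA unchanged. A change of side in nascent RNA alone was not counted.

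**Figure D2:**
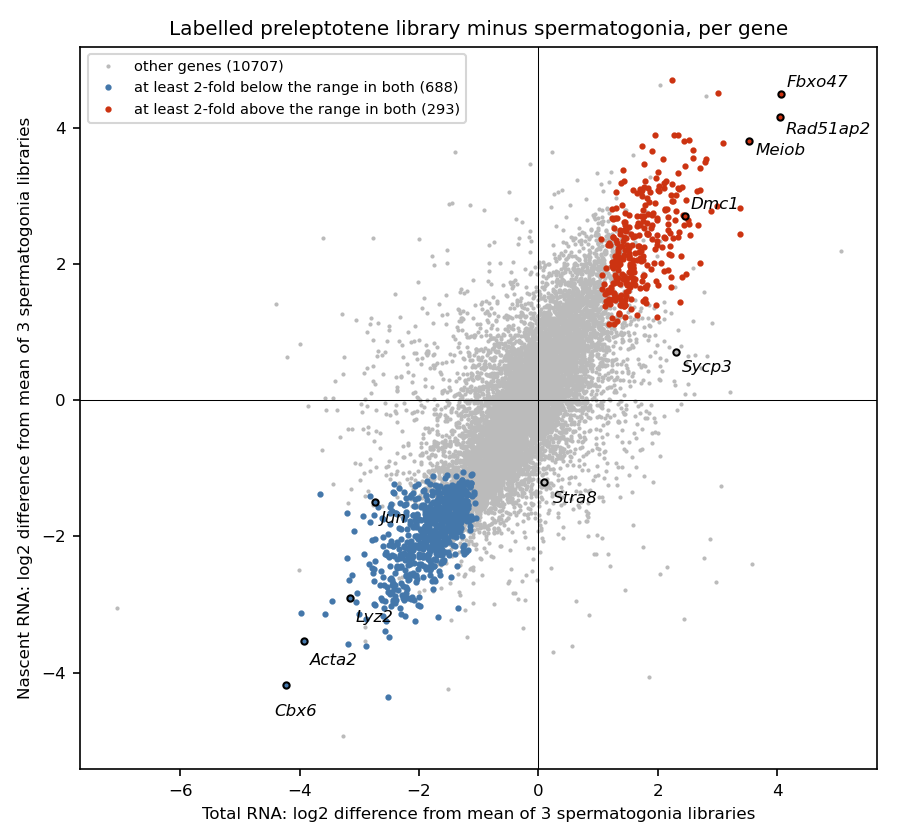
Log2 difference of the preleptotene-labelled library from the mean of 3 spermatogonia libraries for 11688 genes, total RNA on the x axis and nascent RNA on the y axis, with libraries of an assay scaled to equal sums. Red points are the 293 genes at least 2-fold above the range in both assays and blue points the 688 at least 2-fold below, and Stra8 and Sycp3 are in neither set.

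Genes of meiotic recombination were among those furthest above spermatogonia. Among genes with a mean of at least 5 FPKM in both assays, without predicted genes, pseudogenes and small RNA, the 12 with the widest gap in both assays were Fbxo47, Rad51ap2, Meiob, Tex13c2, Ccnb3, Dmc1, Mybl1, Trim52, Smpd3, Unc13b, Mdc1 and Ap1s2. All 12 kept a gap of at least 2-fold under median-of-ratios and spike-in scaling. Of all 293 genes at least 2-fold above, 293 kept it under median-of-ratios scaling and 194 under spike-in scaling. Both scalings raised the median difference of all genes, which favours genes above. With 5S-corrected nascent values 9 were still above the range and Ap1s2, Mdc1 and Trim52 were not.

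Fbxo47, which encodes an F-box protein needed for synapsis in male meiosis and lies at chr11:97853826-97884154, had the widest gap of these. Its total RNA was at 1.35, 1.91 and 2.54 FPKM in spermatogonia and 47.3 in the preleptotene-labelled library, 24.4 times their mean. Its nascent RNA was at 2.62, 1.73 and 2.47 FPKM against 72.4, 31.9 times the mean. All spermatogonia libraries were low in both assays, with log2 differences of 4.06 (SD 0.30, n = 3) and 4.50 (SD 0.22, n = 3).

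Rad51ap2 is a gene of meiotic recombination. It was at 1.14, 0.582 and 2.10 FPKM in total RNA of spermatogonia and 35.2 in the preleptotene-labelled library. In nascent RNA it was at 1.69, 2.003, 3.54 and 58.5 FPKM in that order. Meiob, a single-strand DNA binding protein of meiotic recombination, was at 0.998, 0.507, 1.31 and 21.2 FPKM in total RNA and 1.36, 0.298, 0.922 and 24.2 in nascent RNA. Both genes were low in all spermatogonia libraries, and library 3 was the highest of them for both in total RNA.

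Dmc1, the meiosis-specific recombinase at chr15:79561497-79605109, already had RNA in spermatogonia. It was at 6.31, 6.37 and 11.5 FPKM in total RNA and 46.9 in the preleptotene-labelled library. In nascent RNA it was at 7.13, 11.4, 17.0 and 78.3 FPKM in that order. The preleptotene values were 5.82 and 6.61 times the spermatogonia means, and spermatogonia library 3 was the nearest in both assays.

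Other genes of this set act in the cell cycle, transcription and DNA damage signalling. Ccnb3, a meiotic cyclin on the X chromosome, was at 3.11, 3.38, 6.91 and 32.5 FPKM in total RNA and 3.81, 5.99, 8.60 and 39.6 in nascent RNA. Mybl1, the transcription factor that drives pachytene gene expression, was at 3.09, 2.81, 5.001 and 21.9 FPKM in total RNA and 4.13, 3.26, 4.65 and 42.0 in nascent RNA. Mdc1, an adaptor that binds phosphorylated H2AX, was the most abundant of the 12, at 23.3, 20.2, 24.9 and 91.4 FPKM in total RNA and 31.1, 30.9, 35.6 and 155 in nascent RNA. In each the preleptotene-labelled library stood apart from 3 closely placed spermatogonia libraries, except that Ccnb3 differed more among the spermatogonia. The remaining genes of the 12 had log2 differences of 1.88 (Ap1s2) to 2.99 (Tex13c2) in total RNA and 1.92 (Ap1s2) to 2.85 (Tex13c2) in nascent RNA.

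Of the genes that make and mark meiotic double-strand breaks, 17 of 18 listed passed the level filter and 12 of them were above the range in both assays (70.6%, against 20.6% of all genes), with none below. The medians of the list were 0.55 in total RNA and 1.17 in nascent RNA, against -0.28 and -0.13 for all genes. With 5S-corrected nascent values 0 were above and 1 below and the nascent median was -0.80, which was 0.63 higher than the median of all genes on that scale. Spo11, the enzyme that cuts, was at 1.86, 1.09, 1.45 and 5.21 FPKM in total RNA and 0.836, 0.391, 0.373 and 5.15 in nascent RNA. Prdm9, the methyltransferase that marks hotspots, was at 5.47, 5.18, 8.50 and 24.5 FPKM in total RNA and 9.16, 11.5, 13.3 and 47.0 in nascent RNA. Ccdc36 (Iho1), a break-promoting axis protein, was at 11.8, 13.2, 19.6 and 68.9 FPKM in total RNA and 13.4, 14.4, 20.1 and 93.3 in nascent RNA. In all 3 genes the spermatogonia libraries lay close together and the preleptotene-labelled library lay above them in both assays. Ankrd31, another break regulator, had log2 differences of 1.79 and 1.66. Mei4, Ewsr1, Nbn and Rbbp8 were above the range in 1 assay and inside it in the other. Tex15 was below in total RNA and above in nascent RNA, but its total RNA values in spermatogonia alone ran from 9.63 to 90.01 FPKM.

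The chromosome axis and synaptonemal complex list had all 22 genes past the level filter, with 11 above (50%, against 20.6% of all genes) and 4 below (18.2%, against 35.6%) in both assays and medians of 0.54 and 1.17, and with 5S-corrected nascent values 0 above and 5 below. The nascent median on that scale was -0.73, 0.71 higher than that of all genes. Smc1b, a meiotic cohesin subunit, was at 10.8, 10.1, 17.8 and 61.8 FPKM in total RNA and 12.6, 15.9, 16.8 and 69.2 in nascent RNA. Its log2 differences were 2.22 and 2.13. Sycp1, the transverse filament protein, was at 4.80, 3.91, 6.35 and 13.9 FPKM in total RNA and 7.09, 4.41, 9.68 and 24.8 in nascent RNA, with log2 differences of 1.33 and 1.73. Scml1, Rad21l, Sycp2, Syce1, Tex12, Stag3, 4930447C04Rik (Six6os1) and Smc3, a subunit shared with mitotic cohesin, were above as well, with Scml1 furthest at 2.28 and 2.65. Smc1a (-0.71 and -0.94) and Stag2 (-0.64 and -0.99), subunits of the mitotic complex, were below in both assays beside Rec8 and Ube2b. Syce3 and Hormad2 were below the range in total RNA and above it in nascent RNA, and Syce3 was listed at 0.00929 FPKM in total RNA of the preleptotene-labelled library against 4.84 to 5.93 in spermatogonia.

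Of the strand exchange and crossover genes, 34 of 38 passed the level filter, 19 were above (55.9%, against 20.6% of all genes) and 3 below (8.82%, against 35.6%) in both assays. The medians were 0.54 and 0.91. With 5S-corrected nascent values 6 of 32 were above and 5 below, against 182 above and 5848 below of 11411 genes. Beside Rad51ap2, Meiob and Dmc1, the crossover factor Msh5 was at 1.32, 1.08, 1.54 and 9.28 FPKM in total RNA and 1.83, 1.99, 1.94 and 19.5 in nascent RNA. It was low and even across spermatogonia and 7.08 and 10.2 times higher in the preleptotene-labelled library. The crossover helicase gene Hfm1 (2.17 and 1.91), the ligase gene Rnf212 (0.98 and 1.85) and the MEIOB partner gene Spata22 (1.68 and 2.25) were also above, as log2 differences in total and nascent RNA. Mlh3 (-0.74 and -1.42) and Helb (-0.68 and -0.98) were below. Fignl1, which acts against strand exchange filaments, was below by a narrow gap, at 11.4, 1.04, 0.636 and 0.545 FPKM in total RNA.

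Of 13 telomere attachment genes 12 passed the level filter, and of these 4 were above (33.3%, against 20.6% of all genes) and 2 below (16.7%, against 35.6%) in both assays, and 2 were above and 3 below with 5S-corrected nascent values. The list's medians had opposite signs, -0.20 in total RNA and 0.43 in nascent RNA. Ccdc155 (Kash5), which couples telomeres to dynein, was at 2.12, 1.501, 2.87 and 13.4 FPKM in total RNA and 1.96, 1.58, 2.12 and 14.7 in nascent RNA. Spdya, the CDK2 activator at telomeres, had log2 differences of 2.34 and 2.40. Those 2 genes stood clear of the spermatogonia, while Sun1 (1.41 and 0.89) varied more widely there, from 2.39 to 12.4 FPKM in total RNA. Majin and Terb2, which tether telomeres to the nuclear envelope, were above in nascent RNA (1.52 and 1.75) but not in total RNA (-0.08 and -0.84).

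**Figure D3:**
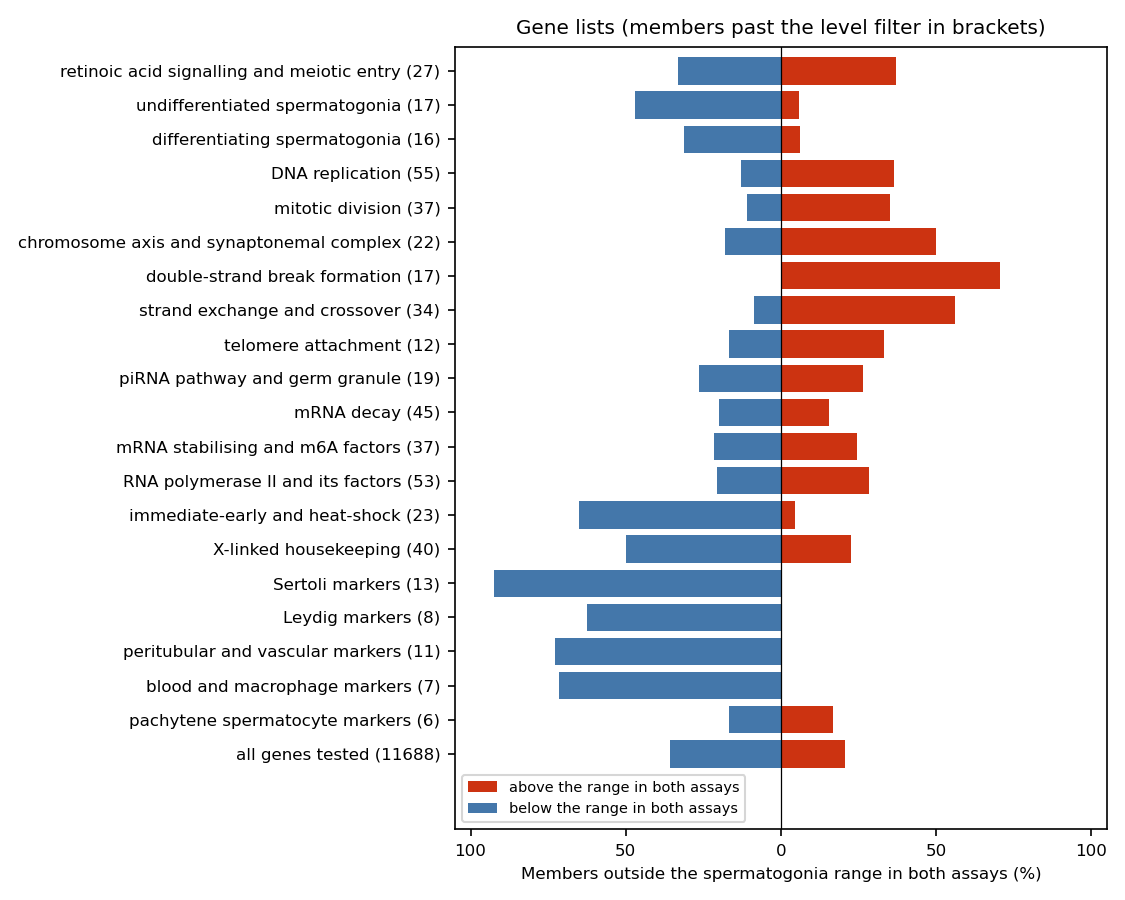
Percent of the members past the level filter (number in brackets) that lay above (red, right) or below (blue, left) the spermatogonia range in both assays, for 20 gene lists and for all 11688 genes, with libraries scaled to equal sums. The double-strand break list has the largest share above (70.6%) and the Sertoli list the largest share below (92.3%). With 5S-corrected nascent values no gene of the break list was above, against 182 of 11411 of all genes. With spike-in scaling 2 of 15 Sertoli genes were below, against 275 of 13340 of all genes.

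The motif CNCCTCAG, associated with genes bound by STRA8 and MEIOSIN, was searched on both strands in the 250 bases before the RefSeq start of 7902 tested genes that had a promoter entry. It was present in 7.37% of these and in 6.39% of all 27025 promoters of the table. Of genes above the range in both assays 11.5% (174 of 1508) held it, against 6.14% of genes below. The share among genes at least 2-fold above the range was 6.94% (10 of 144) and among genes at least 2-fold below it 7.26%. The share was thus higher among genes above the range but not among those furthest above it. Of 56 genes of the 4 meiotic lists and the meiotic entry list that were above in both assays, 44 had a promoter entry. Of these 44, 5 held the motif, against 174 of 1508 of all genes above. These 5 are shown because they are members of those lists above the range with the motif. Each is given as 30 bases of the gene's own strand from RefSeq (GRCm38.p6), with CNCCTCAG or its reverse complement in capitals.
Msh5, 82 bases before the start (chr17:35046686-35046715, - strand): gatcgtcgcggCTGAGGTGacggaaaaggc
Rbm46, 16 bases before the start (chr3:82876484-82876513, - strand): tgaggcacgctaggCTGAGGCGaagagccc
Ugt8a, 32 bases before the start (chr3:125938666-125938695, - strand): gtagtggcgcgCTGAGGGGgagagggggcg
Hfm1, 66 bases before the start (chr5:106925938-106925967, - strand): cggcctgaggcCTGAGGCGcaccgtgcggt
Mcm9, 132 bases before the start (chr10:53630071-53630100, - strand): tccgagacccgCCCCTCAGacgtcttgtcc
Dmc1, Fbxo47 and Spo11 are not among these 5 genes. Fbxo47 is on none of these lists, so its sites were not looked up here. For Dmc1 and Spo11, absence means either no promoter entry or no such letters in the window.

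The other motifs were searched in the same way. CACGTG was in 6.05% of all promoters, 9.12% of tested genes, 8.02% of genes above and 8.04% of genes below. AGGTCA was in 13.8% of all promoters, 9.54% of tested genes, 9.35% of genes above and 9.39% of genes below. GGCGGGAA, an E2F site, was in 1.88% of all promoters and 4.06% of tested genes, 4.44% of genes above, 3.35% of genes below, 6.94% of genes at least 2-fold above and 2.49% of those at least 2-fold below. The first 2 motifs had nearly equal shares above and below. Among genes at least 2-fold above and below, CACGTG was in 7.64% (11 of 144) and 5.39% (26 of 482). AGGTCA was in 9.72% and 9.75% of these sets. The E2F motif had a higher share above, with only 10 of 144 and 12 of 482 promoters in the 2-fold sets.

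Retinoic acid signalling and meiotic entry genes lay on both sides of the range. Of 34 listed genes 27 passed the level filter, and 10 were above (37.0%, against 20.6% of all genes) and 9 below (33.3%, against 35.6%) in both assays, with medians of 0.10 and 0.01, with 5S-corrected nascent values giving 1 above and 11 below. Ythdc2, an RNA helicase needed to leave the mitotic programme, was at 5.39, 4.71, 6.14 and 17.0 FPKM in total RNA and 7.13, 4.24, 11.9 and 25.4 in nascent RNA. Ugt8a was at 12.7, 10.04, 18.2 and 34.3 FPKM in total RNA and 21.5, 17.8, 21.3 and 45.4 in nascent RNA. Both stood above every spermatogonia library. The repressor genes Mga (1.002 and 1.14) and Setdb1 (1.13 and 0.71) and the retinoic acid synthesis genes Aldh1a2 (0.65 and 0.65) and Rdh10 (0.31 and 0.54) were above too, as log2 differences.

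Among the receptors of the same list, Rara was at 8.36, 8.44, 5.604 and 3.49 FPKM in total RNA and 4.82, 3.93, 3.67 and 2.20 in nascent RNA. Rarg was at 8.33, 8.51, 6.94 and 3.11 FPKM in total RNA and 7.49, 6.07, 5.89 and 1.71 in nascent RNA. Both receptors were below all spermatogonia libraries in both assays, Rarg by log2 differences of -1.12 and -1.46. With spike-in scaling Rara and Rarg were no longer below the range in both assays. The degrading enzyme gene Cyp26b1 was at 252, 177, 105.02 and 20.2 FPKM in nascent RNA. It is expressed by testicular somatic cells, as is Aldh1a1 (-3.46 and -2.95), which was below as well. Somatic marker levels, given below, were also lower in the preleptotene-labelled library, and their part in these differences was not tested.

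Genes of undifferentiated spermatogonia were lower mainly in nascent RNA with all 3 spermatogonia libraries, a contrast that depended on spermatogonia library 3. Of 28 listed 17 passed the level filter, 1 was above (5.88%, against 20.6% of all genes) and 8 below (47.1%, against 35.6%) in both assays with medians of -0.68 and -1.09, while 1 was above and 0 below with spike-in scaling. In nascent RNA alone 14 of the 17 were below the range (82.4%), against 45.1% of all genes, and in total RNA 9 (52.9%), against 49.8%. Without total RNA library 3 of spermatogonia 13 of 17 were below in both assays, against 4499 of 11670 of all genes. The medians were then -1.05 in total RNA and -1.09 in nascent RNA. Against library 3 of each assay alone the medians were -0.32 and -0.39. Gfra1, the GDNF receptor of stem cells, was at 9.86, 9.56, 7.33 and 5.56 FPKM in total RNA and 13.8, 14.5, 7.02 and 4.48 in nascent RNA. Zbtb16 was at 49.4, 58.9, 21.3 and 22.3 FPKM in total RNA and 45.8, 45.3, 19.4 and 12.2 in nascent RNA. Spermatogonia library 3 was the lowest spermatogonia library for both genes, and for Zbtb16 in total RNA it lay just under the preleptotene-labelled library. Taf4b, a germ cell subunit of TFIID, was the member above, at 21.9, 20.5, 28.7 and 70.6 FPKM in total RNA and 27.4, 27.6, 34.9 and 76.4 in nascent RNA.

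Differentiating spermatogonia genes were lower mainly in nascent RNA. Of 16 past the filter 1 was above (6.25%) and 5 below (31.3%, against 35.6% of all genes) in both assays. In nascent RNA 11 were below (68.8%, against 45.1% of all genes) and in total RNA 5 (31.3%, against 49.8%), with medians of -0.22 in total and -0.97 in nascent RNA, and with spike-in scaling 1 was above and 0 below in both. Kit, the receptor that defines these cells, was at 12.2, 2.44, 15.3 and 8.15 FPKM in total RNA and 9.48, 12.9, 14.6 and 3.10 in nascent RNA. The preleptotene value of Kit was inside a wide range in total RNA and below a narrow one in nascent RNA, the same pattern as Stra8. Sohlh1 (-0.13 and -1.17), Sohlh2 (0.01 and -0.92) and Ccnd2 (-0.23 and -1.16) also lay inside the range in total RNA and below it in nascent RNA. Dmrt1, whose protein holds back meiosis, was at 57.1, 42.7, 44.3 and 28.2 FPKM in total RNA and 39.2, 53.0, 41.8 and 14.0 in nascent RNA, below the range in both. Magea4 was the member above, by 1.52 and 1.40.

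DNA replication genes were more often above than below spermatogonia, and less so against spermatogonia library 3 alone. Of 60 listed 55 passed the level filter, 20 were above (36.4%, against 20.6% of all genes) and 7 below (12.7%, against 35.6%) in both assays with medians of 0.25 and 0.23, and with 5S-corrected nascent values 0 were above and 13 below. Against spermatogonia library 3 of each assay alone 21 of 54 were above and 19 below, against 3514 above and 5139 below of 11482 genes. The list medians were then 0.28 and 0.12 higher than those of all genes in total and nascent RNA. With all 3 spermatogonia libraries they were 0.53 and 0.36 higher. Orc1, of the origin recognition complex, was at 4.44, 4.82, 6.39 and 10.8 FPKM in total RNA and 2.97, 3.58, 3.66 and 9.97 in nascent RNA. Pcna, the sliding clamp, was at 21.3, 18.1, 17.7 and 30.1 FPKM in total RNA and 15.8, 13.2, 16.8 and 20.6 in nascent RNA. Both were above, but of the 6 subunits of the MCM2 to MCM7 helicase none was above in both assays, and Mcm2 was below (-0.30 and -0.89). E2f2 was below (-1.60 and -1.56) while E2f1 was above (0.80 and 1.05).

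Genes of mitotic division were also more often above than below spermatogonia, with a smaller median difference in nascent RNA. Of 37 past the filter 13 were above (35.1%, against 20.6% of all genes) and 4 below (10.8%, against 35.6%) in both assays. The medians were 0.39 and 0.05. With 5S-corrected nascent values 1 was above and 4 below. Against library 3 alone 14 of 38 were above and 10 below, against 3514 above and 5139 below of 11482 genes. The list medians minus those of all genes were then 0.47 in total RNA and -0.04 in nascent RNA. With all 3 spermatogonia libraries they were 0.67 and 0.18. Mki67, a marker of cycling cells, was at 12.8, 15.8, 30.7 and 58.2 FPKM in total RNA and 15.9, 17.7, 33.1 and 56.0 in nascent RNA. Top2a, a topoisomerase of replication and chromosome condensation, was at 8.45, 11.9, 13.5 and 41.6 FPKM in total RNA and 8.85, 10.01, 13.9 and 36.9 in nascent RNA. Fbxo5, an inhibitor of the anaphase-promoting complex, was at 5.97, 8.83, 7.93 and 21.4 FPKM in total RNA and 2.22, 3.002, 3 and 26.2 in nascent RNA. The preleptotene-labelled library was the highest for all 3 in both assays, and spermatogonia library 3 was the nearest for Mki67 and Top2a. The kinase gene Plk1, which acts at mitosis itself, was inside the range in total RNA (-0.20) and barely below it in nascent RNA, where its spermatogonia values ran from 0.920 to 11.02 FPKM.

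Lists of RNA-handling genes had shares above of 15.6% to 28.3%, against 20.6% of all genes, and shares below of 20.0% to 26.3%, against 35.6%. Of 45 mRNA decay genes 7 were above and 9 below in both assays, and 19 above and 5 below with median-of-ratios scaling. Of 37 mRNA stabilising and m6A genes 9 were above and 8 below, and 12 and 3 with median-of-ratios scaling. Of 53 genes of RNA polymerase II and its factors 15 were above and 11 below, and 0 and 15 with 5S-corrected nascent values. Of 19 piRNA and germ granule genes 5 were above and 5 below, and 9 and 1 with median-of-ratios scaling. None of these 4 lists had a median beyond 0.33 in size in either assay with equal sums.

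Named members of these lists differed in direction. The destabilising zinc finger genes Zfp36l1 (-1.83 and -2.32) and Zfp36l2 (-0.96 and -1.23) and the deadenylase adaptor gene Tob2 (-1.65 and -1.36) were below in both assays, as log2 differences. Patl1, a decapping factor gene, was above (0.75 and 1.18). The m6A demethylase gene Alkbh5 was at 13.5, 50.7, 66.7 and 107 FPKM in total RNA and 58.4, 60.5, 79.4 and 143 in nascent RNA, and the m6A reader gene Ythdf2 at 18.6, 18.4, 19.7 and 8.19 in total RNA and 10.4, 10.4, 12.8 and 6.97 in nascent RNA. Alkbh5 was thus above and Ythdf2 below in both assays, with a wide spread of Alkbh5 among the spermatogonia in total RNA. Polr2a, the largest polymerase subunit, was at 30.03, 27.1, 32.3 and 43.8 FPKM in total RNA and 68.0, 59.0, 49.5 and 45.6 in nascent RNA. It was above the range in total RNA and below it in nascent RNA, by log2 differences of 0.54 and -0.35.

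Genes of somatic testis cells were lower in the preleptotene-labelled library in both assays. The summed Leydig markers stood at 602, 394 and 219 FPKM in total RNA of spermatogonia and 23.1 in the preleptotene-labelled library, and at 53.4, 96.1, 40.7 and 5.59 in nascent RNA. Peritubular and vascular markers summed to 361, 508, 241 and 46.0 FPKM in total RNA and 235, 257, 141 and 23.6 in nascent RNA. Sertoli markers summed to 339, 301, 248 and 74.4 FPKM in total RNA and 130, 143, 98.7 and 26.3 in nascent RNA. Library 3 held the least of each list among the spermatogonia, and the preleptotene-labelled library held far less again. Blood and macrophage markers summed to 78.8, 71.1, 54.6 and 10.8 FPKM in total RNA and 27.7, 24.0, 17.95 and 2.49 in nascent RNA. In bulk RNA fewer cells of a type and less RNA per cell cannot be told apart.

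Counted by gene, 12 of 13 Sertoli, 5 of 8 Leydig, 8 of 11 peritubular and vascular and 5 of 7 blood markers past the filter were below the range in both assays (62.5% to 92.3%, against 35.6% of all genes) and none was above, with 1 blood marker above under median-of-ratios scaling. With spike-in scaling 2 of 15, 5 of 8, 1 of 11 and 4 of 6 were below, against 275 of 13340 of all genes. On that scale the list medians minus that of all genes ran from -2.46 (Leydig) to -1.53 (Sertoli) in total RNA. In nascent RNA they ran from -2.83 (Leydig) to -1.72 (Sertoli). With equal sums the list medians ran from -2.74 (Leydig) to -1.80 (Sertoli) in total RNA. In nascent RNA they ran from -2.58 (peritubular and vascular) to -1.59 (Sertoli). Acta2, smooth muscle actin of peritubular cells, was at 147, 214, 78.7 and 7.96 FPKM in total RNA and 101, 88.7, 48.9 and 5.61 in nascent RNA. Hsd3b1, a steroid-making enzyme of Leydig cells, was at 72.6, 82.1, 32.7 and 5.45 FPKM in total RNA and 20.3, 22.9, 10.3 and 0.493 in nascent RNA. Lyz2, lysozyme of macrophages, was at 21.9, 24.3, 22.2 and 1.66 FPKM in total RNA and 7.46, 6.70, 5.45 and 0 in nascent RNA. All 3 were named by a rule that takes genes outside the range in both assays. Of the members in each list, 2 of 10 Leydig and 2 of 21 Sertoli genes were listed at 0 in total RNA of the preleptotene-labelled library, and no peritubular or blood gene was.

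**Figure D4:**
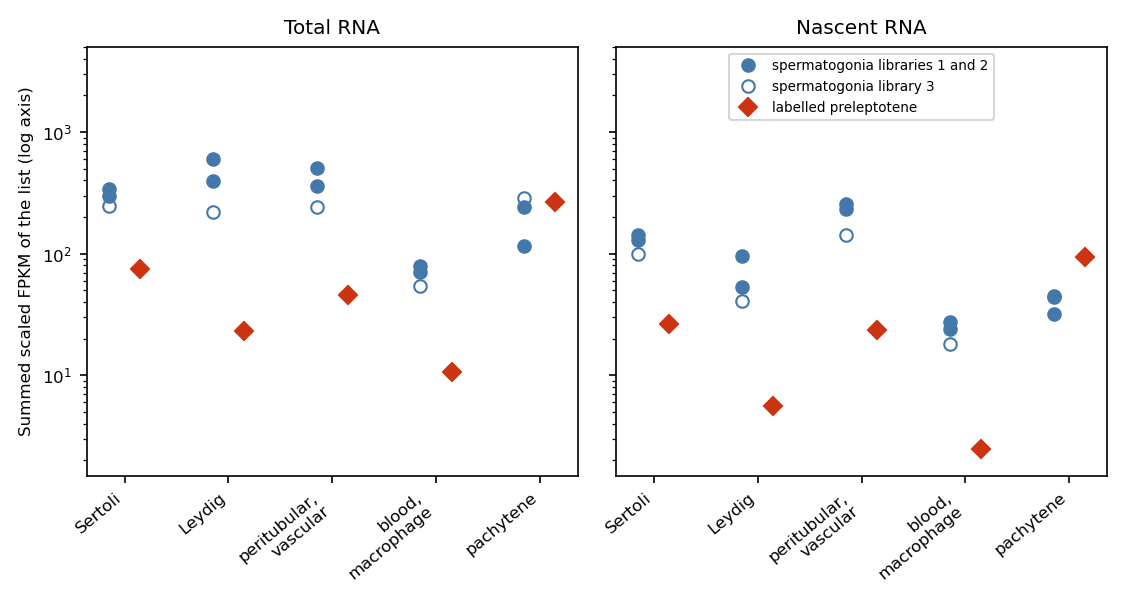
Summed scaled FPKM of 5 marker lists per library on a log axis, total RNA on the left and nascent RNA on the right, with spermatogonia library 3 as an open circle and the preleptotene-labelled library as a diamond. The 4 somatic lists are lowest in the preleptotene-labelled library in both assays and next lowest in spermatogonia library 3, for example Leydig markers in total RNA at 602, 394, 219 and 23.1.

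By the same rule of level and class, the 12 genes furthest below the range were Cbx6, Tollip, Acta2, S100a11, Cldn11, Sparc, Ppt1, Vim, Hsd3b1, Eln, Fads1 and Slc48a1. Acta2, Cldn11, Hsd3b1 and Eln are on the somatic marker lists, and Sparc and Vim are widely used as markers of mesenchymal or Sertoli cells. Vim was at 25.3, 39.1, 24.9 and 2.33 FPKM in total RNA and 14.5, 14.9, 11.1 and 1.31 in nascent RNA. Cldn11, the tight junction claudin of Sertoli cells, was at 34.95, 39.9, 32.0 and 4.42 FPKM in total RNA and 13.2, 14.1, 12.8 and 1.27 in nascent RNA. Cbx6, a Polycomb protein gene, was at 18.04, 28.6, 11.3 and 0.0188 FPKM in total RNA and 21.4, 19.8, 11.8 and 0 in nascent RNA. The preleptotene-labelled library was lowest for each by a wide margin, and a value at or near 0 in such tables can also be a failed estimate. Tollip was erratic in other libraries of the series, with 1.17 to 117 FPKM over 4 leptotene libraries in total RNA. With spike-in scaling 5 of the 12 remained below the range. The part of the lower somatic marker levels in these differences was not tested.

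Immediate-early and heat-shock genes were lower as a group. Of 23 past the filter 1 was above (4.35%, against 20.6% of all genes) and 15 below (65.2%, against 35.6%) in both assays, with medians of -2.02 in total RNA and -1.10 in nascent RNA, and with spike-in scaling 0 were above and 1 below. Jun was at 46.1, 52.4, 19.13 and 4.51 FPKM in total RNA and 6.24, 5.26, 3.47 and 1.08 in nascent RNA. Fos was at 9.59, 42.2, 3.38 and 0.676 FPKM in total RNA and 11.1, 8.74, 6.05 and 2.54 in nascent RNA. Ier3 was at 20.2, 20.3, 12.5 and 1.71 FPKM in total RNA and 2.76, 2.03, 1.93 and 0 in nascent RNA. For all 3 the spermatogonia library 3 was the lowest of the spermatogonia and the preleptotene-labelled library was lower still. Against library 3 alone the list's total RNA median was -1.03, and 15 of 20 genes were below in both assays, against 5139 of 11482 of all genes. Somatic marker sums, given above, were lower in the same libraries, and their part in the result was not tested.

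X-linked housekeeping genes were, like all genes, more often below than above. Of 40 past the filter 9 were above (22.5%, against 20.6% of all genes) and 20 below (50%, against 35.6%) in both assays, with medians of -0.52 and -0.92, and 9 were above and 1 below with spike-in scaling. Atrx, a chromatin remodeller, was at 5.28, 6.03, 4.68 and 1.52 FPKM in total RNA and 7.79, 8.34, 6.97 and 1.81 in nascent RNA. Uba1, the main ubiquitin-activating enzyme, was at 14.7, 21.2, 19.2 and 4.12 FPKM in total RNA and 8.84, 6.14, 7.73 and 1.74 in nascent RNA. Hprt, a purine salvage enzyme, was in the other direction at 17.7, 19.6, 20.3 and 37.1 FPKM in total RNA and 9.00, 11.3, 14.2 and 26.8 in nascent RNA. The chromosome thus held genes clearly on both sides of the range. Of all tested genes with coordinates 4.25% were on the X chromosome, against 5.34% of genes at least 2-fold above and 6.76% of those at least 2-fold below.

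Markers of later germ cells stayed far below their levels in pachytene cells. Pachytene markers summed to 241, 116 and 285 FPKM in total RNA of spermatogonia and 268 in the preleptotene-labelled library, against 6919 to 7274 in pachytene libraries on the same scale. In nascent RNA the sums were 44.5, 31.8, 43.7 and 94.6 FPKM, against 1286 to 1961 in pachytene libraries. The preleptotene value was inside the spermatogonia range in total RNA and above it in nascent RNA. The linker histone gene Hist1h1t accounted for part of the sum, at 71.0, 29.3, 78.8 and 127 FPKM in total RNA and 5.20, 5.01, 6.88 and 34.3 in nascent RNA. Spermatid markers summed to 12.9, 11.1, 21.3 and 8.37 FPKM in total RNA, and none of the 16 passed the level filter.

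Genes could also be on opposite sides of the range in the assays. Above in total and below in nascent RNA were 123 genes (1.05%), and below in total and above in nascent RNA 650 (5.56%). The widest gaps were sought among genes with a mean of at least 5 FPKM in both assays, without predicted genes, pseudogenes and small RNA. Among these Rpl14, a ribosomal protein gene with many processed copies, had the widest gap of the first kind. It was at 6.56, 4.28, 3.13 and 42.0 FPKM in total RNA and 15.7, 14.8, 11.2 and 1.33 in nascent RNA. Ints5, a subunit of the Integrator complex, had the widest of the second kind, at most 17.9 and at least 14.3 FPKM in total RNA of spermatogonia against 0.401, and 9.52 to 11.5 in nascent RNA against 58.2. Of the meiotic entry genes, Crabp1, a retinoic acid binding protein gene, was of the first kind at 1.75, 5.89, 3.13 and 12.3 FPKM in total RNA and 2.66, 1.91, 2.46 and 0.680 in nascent RNA. Dazl, a germ cell translation regulator gene, was of the second kind at 6.37, 6.498, 8.35 and 2.22 FPKM in total RNA and 14.3, 175, 216 and 249 in nascent RNA. The nascent values of Dazl ran from 14.3 to 216 FPKM among the spermatogonia alone. These 4 genes were chosen after their values were seen.

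The leptotene libraries were set beside these values on the same scale, without a test, since they share the spermatogonia libraries as controls. Fbxo47 was at 39.9, 11.5, 5.20 and 58.5 FPKM in total RNA of leptotene libraries 1 to 4 and at 82.2, 35.4, 9.19 and 62.6 in nascent RNA. Dmc1 was at 46.3, 10.2, 15.6 and 58.9 FPKM in total RNA and 86.5, 34.5, 21.2 and 71.9 in nascent RNA. Stra8 was at 25.3, 5.15, 21.4 and 20.9 FPKM in total RNA and 11.2, 4.45, 20.0 and 6.42 in nascent RNA. For all 3 genes the preleptotene values lay inside the spread of the leptotene libraries in both assays, and leptotene libraries 1 and 4 were closest to it for Fbxo47 and Dmc1. Acta2 was at 0.206 to 2.01 FPKM in total RNA of leptotene libraries, under the 7.96 of the preleptotene-labelled library. Gfra1 was at 1.17 to 1.58 FPKM in total RNA of leptotene libraries, against 5.56 in the preleptotene-labelled library and 7.33 to 9.86 in spermatogonia. Sycp3 in total RNA was higher in the preleptotene-labelled library, at 34.0 FPKM, than in any leptotene library, at 9.70 to 30.1.

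**Figure D5:**
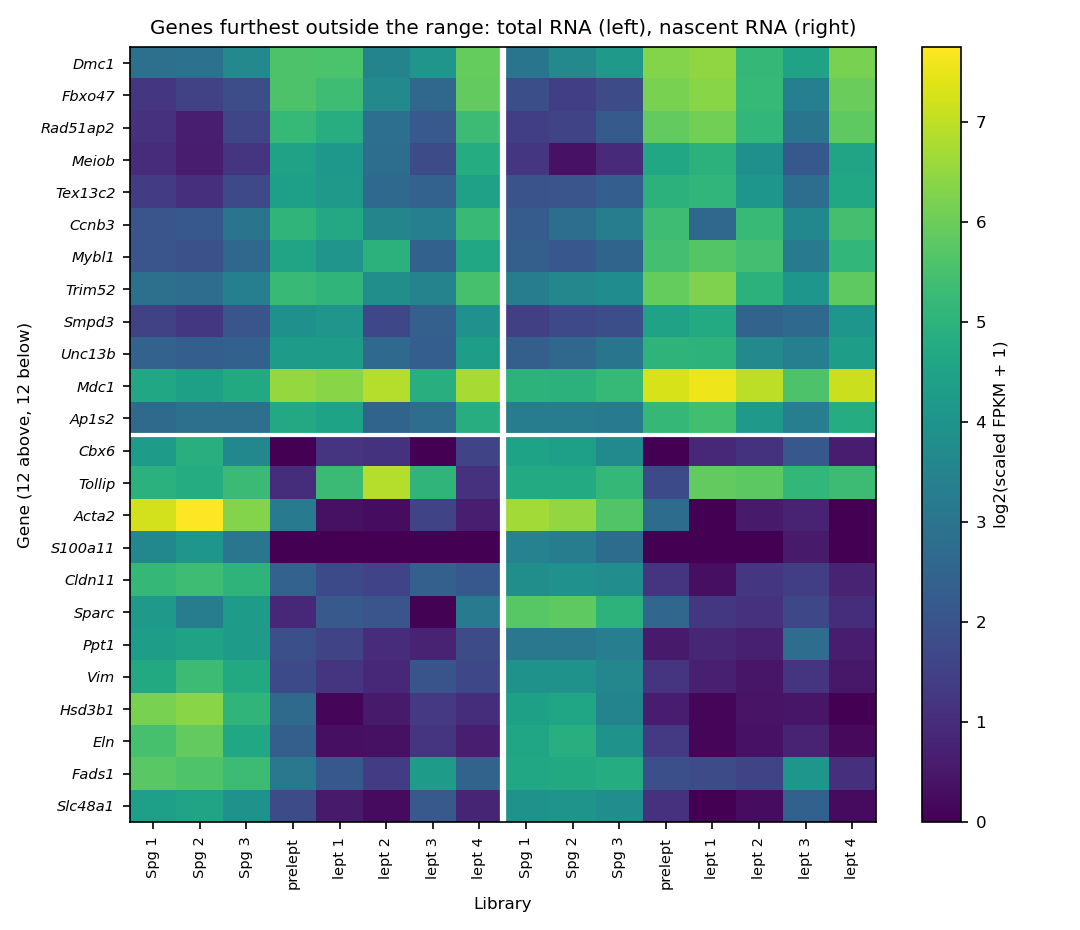
Level of the 12 genes furthest above (upper block) and the 12 furthest below (lower block) the spermatogonia range among genes with a mean of at least 5 FPKM in both assays, without predicted genes, pseudogenes and small RNA, as log2(scaled FPKM + 1), with 3 spermatogonia (Spg), 1 preleptotene-labelled (prelept) and 4 leptotene (lept) libraries of total RNA on the left and nascent RNA on the right. The upper genes are brightest in the preleptotene-labelled library and leptotene libraries 1 and 4, and leptotene library 3 is nearer to spermatogonia, for example Fbxo47 at 5.20 FPKM in total RNA.

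The sets furthest above and furthest below differed in gene class. Of the 293 genes at least 2-fold above the range 51.9% were protein coding (152), 26.3% were long noncoding, antisense or unclassified genes and 11.3% pseudogenes. Of the 688 genes at least 2-fold below, 96.4% were protein coding, and of all tested genes 82.6%. The 293 genes at least 2-fold above were also shorter, with a median span of 9.85 kb against 19.6 kb for all tested genes. The 2407 genes above the range in both assays were not, with a median span of 21.2 kb. Spans were not compared within protein coding genes alone. Of 129 noncoding entries at least 2-fold above, 43 (33.3%) overlapped a protein coding gene that was itself above the range in both assays. The use of strand in counting is not given in the sources used here, so an antisense or overlapping entry cannot be told apart from its partner.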

How the data were processed

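Expression was deposited as FPKM, 1 table for each assay. STAR 2.5.2a, StringTie and the mm10 build are named in the submitters' processing notes, which the authors gave without roles. Version of StringTie, annotation and use of strand are not given in the sources used here. A further deposited table gives the 5S-corrected signal, which equals nascent FPKM times 1 constant per library. Ribosomal RNA was removed only in the total RNA assay, and ERCC spike-ins were added after extraction, per the labels.

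The 92 spike-in entries were dropped, the 4 libraries of each assay were scaled to their mean sum, and genes with a mean of at least 1 FPKM in both assays were kept (11688 of 52323 entries). Differences are on the log2(FPKM + 1) scale, which understates low genes. The unit of each call is the library, with 1 preleptotene library per assay and therefore no p-value. Implied depth is an estimate: the most common low value of FPKM times length, over genes with 1 transcript, was taken as 1 fragment. FPKM of a library with many spike-ins is lowered for all genes, which the equal sums remove.

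Named genes were Stra8 and Sycp3, the 12 genes above and 12 below with the largest gap to the range in both assays (mean of at least 5 FPKM in both, without predicted genes, merged symbols, pseudogenes and small RNA), up to 4 members of each list outside the range in both assays with the largest gap, or the 2 most abundant where fewer than 2 were, and Gm4969, Rec8, Dmc1, Spo11, Sycp1, Prdm9, Kit, Gfra1, Zbtb16, Mki67 and Polr2a. Other genes in the text were chosen after their values were seen. The genes and the 21 lists (588 of 591 symbols found) were chosen with earlier results of these data known. Coordinates are from GENCODE M21 and promoters from RefSeq (GRCm38.p6). Alternatives were scaling, level filter, pseudocount, 5S-corrected values, libraries averaged by animal and each spermatogonia library left out. The scripts were tested on simulated data and ran on pandas 2.3.3 and numpy 2.4.6 under Python 3.11.15, with figures from matplotlib 3.10.9.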

Additional observations from a re-analysis of the deposited data

How the results depend on the processing

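No paired analysis was possible because spermatogonia and the preleptotene-labelled stage share only 1 replicate number and no animal within an assay, and no test was made. Median-of-ratios scaling gave 3854 genes above the range, 662 at least 2-fold above and 363 at least 2-fold below. Spike-in scaling gave 275 below and 13 at least 2-fold below, with log2 differences of 0.97 for Stra8 and 2.76 for Sycp3 in nascent RNA. With 5S-corrected nascent values 182 genes were above and 26 at least 2-fold above, Stra8 was at -2.96 and Sycp3 at -1.16. These alternatives differ from equal sums by 1 factor per library, by construction. Without a level filter 4570 genes were above and 6776 below. With a mean of at least 5 FPKM there were 1015 above, 1215 below, 107 at least 2-fold above and 316 at least 2-fold below. A pseudocount of 0.1 gave 455 and 1449 genes past 2-fold, and one of 5 gave 88 and 90 with Sycp3 at 1.81 in total RNA.

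Leaving out each spermatogonia library in turn gave 2511 to 2745 genes above, 4135 to 4499 below, 307 to 471 at least 2-fold above and 704 to 931 at least 2-fold below. Stra8 then ranged from -0.21 to 0.28 in total RNA, with -0.21 without library 3, and from -1.33 to -1.07 in nascent RNA. Sycp3 ranged from 2.09 to 2.57 in total RNA and from 0.39 to 1.05 in nascent RNA. The following were chosen after seeing the data: library 3 of each assay alone gave 481 genes at least 2-fold above, and protein coding genes alone gave 152. Of 93 named genes outside the range in both assays none went to the other side in both assays under an alternative. Alternatives that changed only 1 assay could not bring this about, and a change of side in nascent RNA alone was not counted. Of the 93 genes, 35 were no longer outside the range with spike-in scaling, 31 with 5S-corrected nascent values and 1 (Ddx25) with median-of-ratios scaling. The number that stayed outside under every alternative that gave them a value was 27. Spo11 did not pass the level filter with 5S-corrected nascent values. Genes near 1 FPKM have few fragments at these depths.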
